A study of Mus musculus with 4 samples.

Results

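Transcript levels of 31 protein-coding genes of cholesterol metabolism were followed in 4 libraries of mouse neural stem cells, which divide and give rise to the neurons and glia of the brain. The genes were chosen by name: 18 enzymes that build cholesterol, 6 genes that sense sterols or switch the pathway on and off, and 7 genes that move or store cholesterol. All 31 were found among the 55487 gene IDs of the expression table. A mean of at least 10 transcripts per 1000000 (TPM, the share of transcripts taken by a gene after correction for its length) over the 4 libraries was required for comparisons, and 28 members passed: 17 synthesis enzymes, 6 sensing genes and 5 transport and storage genes. Hsd17b7, Abca1 and Abcg1 did not pass, and they enter no median, count of calls or share. Of all protein-coding genes, 7949 passed.

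The cells were primary cultures from the embryonic neocortex, grown as neurospheres with growth factors, and each group held 1 library. The control carried the floxed alleles Tut1f/f and received lipid nanoparticles (LNP) without cargo. The Tut1 KO library came from Tut1f/f cells given Cre-LNP, which carry mRNA for Cre recombinase, an enzyme that removes DNA between loxP sites. The Trp53 KO library came from p53f/f cells and the double KO library from Tut1f/f;p53f/f cells, both given Cre-LNP, and all Cre-treated cultures were taken after 3 days. Tut1 encodes the enzyme that adds the uridine tail to U6 small nuclear RNA, a core RNA of the spliceosome, and Trp53 encodes p53, which halts or kills cells with damaged DNA. The Trp53 KO library therefore differed from the control in its floxed alleles as well as in Cre, and no library held Trp53-floxed cells without Cre. Whether a culture held cells of 1 embryo or several was not given in the sources used here.

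The targeted genes were checked first. Trp53 was at 119.9 TPM in the control library, 100.4 in Tut1 KO, 39.7 in Trp53 KO and 41.9 in double KO, lower in both libraries labelled as deleted. Tut1 was at 12.2 TPM in control, 29.8 in the library labelled Tut1 KO, 12.5 in Trp53 KO and 13.7 in double KO, so it was not lower in the libraries labelled as deleted. By the study's methods Cre removes a single exon of Tut1, and a value per gene, which holds the remaining exons too, does not check that deletion. The study scored it on that exon, whose level was not analysed here. Directions drawn for Tut1 therefore rest on the labels here. Of 10 neural stem cell markers, 9 were at 10 TPM or more in all 4 libraries, and 4 of 6 microglia markers were listed at 0 in all of them. Xist, transcribed from the inactive X chromosome of females, was at 188 TPM in Tut1 KO and 204 in Trp53 KO, against 0.00969 in control and 0.00895 in double KO. The Y-linked gene Ddx3y was listed at 0 in both single KO libraries and was at 24.4 and 25.7 TPM in control and double KO. The single KO libraries thus differed from control and double KO in sex markers. Each of the 4 contrasts used here sets a single KO library beside control or double KO and so crosses this division. TPM values keep no depth, so the number of reads behind each value is unknown. No replicate existed, so no test, p-value or error is given, and a fold past the threshold describes the libraries, not the conditions.

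Cells build cholesterol from acetyl-CoA through mevalonate, farnesyl diphosphate, squalene and lanosterol. When sterols in the endoplasmic reticulum are low, Scap carries the SREBP proteins (products of Srebf1 and Srebf2) to the Golgi, where they are cut and released to switch on genes of the pathway. When sterols are high, Insig proteins hold Scap back, while oxysterols activate LXR receptors such as the product of Nr1h2, which switch on export genes including Abca1, Abcg1 and Apoe. The brain makes nearly all of its own cholesterol, because lipoproteins of the blood do not cross the blood-brain barrier, and dividing precursors need it for new membranes.

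SREBP proteins are known to bind sterol regulatory elements next to sites of the factor NF-Y, and promoter sequences of 4 members that stand for the patterns described here are shown for that reason. Each runs 5′ to 3′ on the strand of the gene, from 250 bases before to 50 bases after the transcription start in RefSeq (build GRCm38.p6). Hmgcs1 (chr13:119690101-119690400, plus strand) and Insig1 (chr5:28071162-28071461, plus strand) stand for the members lowest in Tut1 KO. Idi1 (chr13:8885356-8885655, plus strand) was highest in the single KO libraries, and Apoe (chr7:19699139-19699438, minus strand, of 3 windows listed, the one closest to the annotated start) went opposite to the synthesis enzymes. Capitals mark the letters TCACNCCAC (the core of a sterol regulatory element), CCAAT (the NF-Y box, written ATTGG where it lies on the other strand) and CACGTG (an E-box), searched on both strands.
Hmgcs1: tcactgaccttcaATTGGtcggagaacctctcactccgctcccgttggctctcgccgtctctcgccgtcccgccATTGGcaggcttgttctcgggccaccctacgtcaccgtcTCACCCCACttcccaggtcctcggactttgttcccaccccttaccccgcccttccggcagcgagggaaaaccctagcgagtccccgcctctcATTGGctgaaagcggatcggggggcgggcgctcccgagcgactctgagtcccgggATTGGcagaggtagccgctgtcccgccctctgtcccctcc
Insig1: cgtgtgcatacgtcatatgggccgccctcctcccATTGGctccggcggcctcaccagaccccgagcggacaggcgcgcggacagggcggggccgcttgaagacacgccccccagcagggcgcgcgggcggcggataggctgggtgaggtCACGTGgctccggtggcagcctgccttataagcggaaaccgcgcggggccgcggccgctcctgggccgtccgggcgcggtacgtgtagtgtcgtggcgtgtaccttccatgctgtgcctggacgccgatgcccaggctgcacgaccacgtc
Idi1: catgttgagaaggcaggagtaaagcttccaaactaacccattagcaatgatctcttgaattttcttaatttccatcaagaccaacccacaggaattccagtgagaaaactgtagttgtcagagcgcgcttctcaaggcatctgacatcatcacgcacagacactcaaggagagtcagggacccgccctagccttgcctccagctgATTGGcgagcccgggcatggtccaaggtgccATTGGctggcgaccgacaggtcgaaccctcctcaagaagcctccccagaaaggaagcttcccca
Apoe: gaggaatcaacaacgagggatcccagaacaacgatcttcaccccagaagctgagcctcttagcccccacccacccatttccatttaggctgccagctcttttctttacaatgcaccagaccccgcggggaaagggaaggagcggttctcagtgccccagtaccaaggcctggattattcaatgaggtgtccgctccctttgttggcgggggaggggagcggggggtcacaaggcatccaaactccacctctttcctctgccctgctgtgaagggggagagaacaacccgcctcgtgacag

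The window of Hmgcs1 held the sterol regulatory element core 137 bases before the start and NF-Y boxes 237, 176 and 45 bases before and 10 bases after it. Insig1 had an NF-Y box 216 bases before the start and an E-box 101 bases before it, Idi1 had NF-Y boxes 45 and 14 bases before it, and none of these letters were in the window shown for Apoe. Of the 31 members, 25 matched a RefSeq promoter, with 35 windows in all. Fdps, Fdft1, Sqle, Stard4, Npc1 and Abcg1 had no window, so the 18 windows of synthesis enzymes belonged to 15 enzymes. The NF-Y box was in 14 of the 18 windows of synthesis enzymes (77.8%), in 5 of 11 windows of sensing genes (45.5%) and in 2 of 6 windows of transport and storage genes (33.3%), compared with 37.4% of all 32851 windows. The sterol regulatory element core was in 1 member window, that of Hmgcs1, and in 1.24% of all windows. The E-box was in 7 of the 35 member windows (20.0%) and in 7.15% of all windows. None of the matches in the windows shown overlapped one of another motif. Such a match is a run of letters and not a measured binding site.

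Most synthesis enzymes were lowest in the library labelled Tut1 KO. The 18 enzymes summed to 3099.7 TPM in control, 2418 in Tut1 KO, 3459 in Trp53 KO and 3388 in double KO. That is 78.0% of the control sum in Tut1 KO, 112% in Trp53 KO and 109% in double KO. The 6 sensing genes summed to 85.7% of control in Tut1 KO, 111% in Trp53 KO and 105% in double KO, and the 7 transport and storage genes to 118%, 115% and 109.5%. Single members set both sums in Tut1 KO: without Insig1 the sensing sum was 101% of control there, and without Apoe the transport and storage sum was 96.7%. Of the 17 enzymes compared, 13 were lowest in Tut1 KO, 3 in control (Idi1, Fdft1 and Msmo1) and 1 in Trp53 KO (Acat2). Tut1 KO was also the lowest library for 3 of the 5 transport and storage genes compared (Stard4, Npc1 and Soat1), for 2 of the 6 sensing genes (Srebf2 and Insig1) and for 42.4% of the 7949 genes. Summed levels of the neuronal, oligodendrocyte lineage and astrocyte markers had their lowest value in the same library. The 7 neuronal markers summed to 232 TPM in control, 163 in Tut1 KO, 202 in Trp53 KO and 213 in double KO, and 6 markers of the oligodendrocyte lineage to 669, 572, 617 and 638 TPM. The 7 astrocyte markers were nearly level between control (300.0 TPM) and Tut1 KO (299 TPM). The part of these lists in the result was not tested. In bulk RNA, fewer cells of a type and less RNA per cell cannot be told apart.

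**Figure D1:**
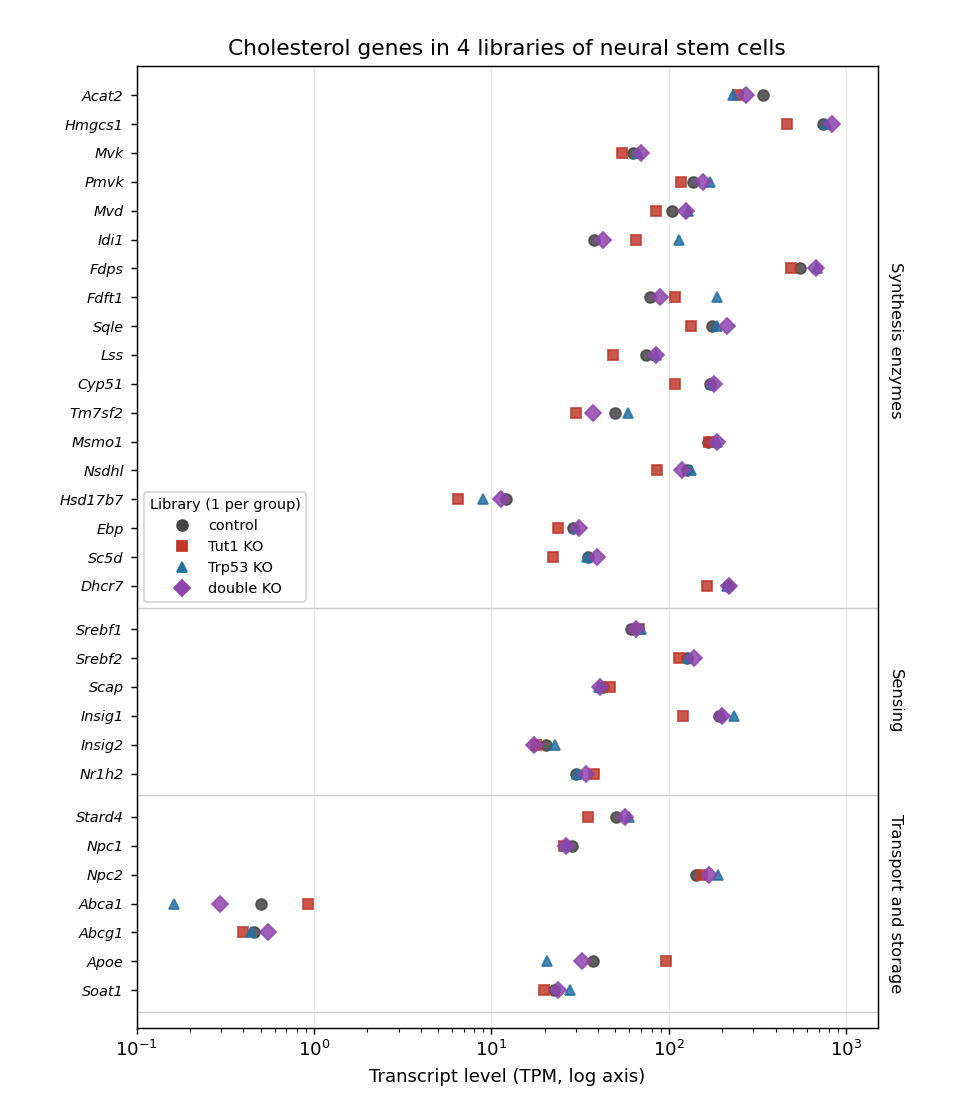
Levels of the 31 members in TPM on a log axis, 1 point per library, with the synthesis enzymes above, the sensing genes in the middle and the transport and storage genes below. Hmgcs1 and Fdps are the most abundant members, the red squares of Tut1 KO lie leftmost for most enzymes, and Abca1 and Abcg1 are under 1 TPM in every library.

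The first enzymes make mevalonate. Acat2, the cytosolic thiolase that joins acetyl-CoA units, was at 339 TPM in control, 246 in Tut1 KO, 231 in Trp53 KO and 273 in double KO, so control was highest and Trp53 KO lowest. Hmgcs1, which makes HMG-CoA, was the most abundant member, with 737, 462, 769 and 836 TPM in the same order. Tut1 KO was the low library for Hmgcs1, and the other 3 lay close together. The difference of Tut1 KO from control was -0.67 for Hmgcs1 and -0.46 for Acat2 on the log2(TPM + 1) scale, which is used for all differences here and understates the change of low genes.

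Mevalonate is then activated and decarboxylated to isoprenoid units. Mvk, mevalonate kinase, was at 62.6 TPM in control, 54.3 in Tut1 KO, 67.1 in Trp53 KO and 69.5 in double KO. Pmvk, which adds the next phosphate, had 137, 118, 169.6 and 157 TPM, and Mvd, the decarboxylase, had 104, 84.2, 128 and 125 TPM in that order. All of these enzymes were lowest in Tut1 KO and lower in both libraries with Trp53 intact than in both with Trp53 deleted. Fdps, which condenses isoprenoids to farnesyl diphosphate, had the order of Pmvk and Mvd with 551, 489.5, 682 and 677 TPM. From Tut1 KO to double KO the differences were 0.35 for Mvk, 0.41 for Pmvk, 0.56 for Mvd and 0.47 for Fdps.

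Idi1 and Fdft1 departed from the other enzymes. Idi1, the isomerase that turns isopentenyl diphosphate into its reactive isomer, was at 37.7 TPM in control, 64.9 in Tut1 KO, 115 in Trp53 KO and 42.4 in double KO. Fdft1, squalene synthase, which commits farnesyl diphosphate to sterols, was at 78.2, 109, 188 and 88.9 TPM in the same order. For both genes the single KO libraries lay above control and double KO, with Trp53 KO highest. Trp53 KO exceeded control by 1.58 for Idi1 and by 1.25 for Fdft1, and double KO minus Trp53 KO was -1.42 and -1.07. Among all genes tested, 0.44% had a difference of Trp53 KO from control as high as that of Idi1 and 0.73% as high as that of Fdft1.

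The division of libraries seen in Idi1 and Fdft1 is the one that the sex markers make, and these cannot be told apart with 1 library per group. Idi1, Fdft1 and Srebf1, 3 of the 28 members, had both single KO libraries above control and double KO, a share near the 10.1% of all genes. Acat2, Sc5d and Dhcr7 had both below, beside 29.7% of all genes. These counts depend on the processing. With GC content and length removed, 6 members had both above and 1 had both below. The number with both below was 1 under quantile normalization and 5 with no minimum. Shares of all genes were not computed at these settings, so no background stands beside these counts. Fdft1 overlaps exons of Ctsb on the opposite strand, and the strand setting of the counting was not given in the sources used here. Ctsb itself was at 75.2 TPM in control, 86.5 in Tut1 KO, 79.9 in Trp53 KO and 81.6 in double KO.

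**Figure D2:**
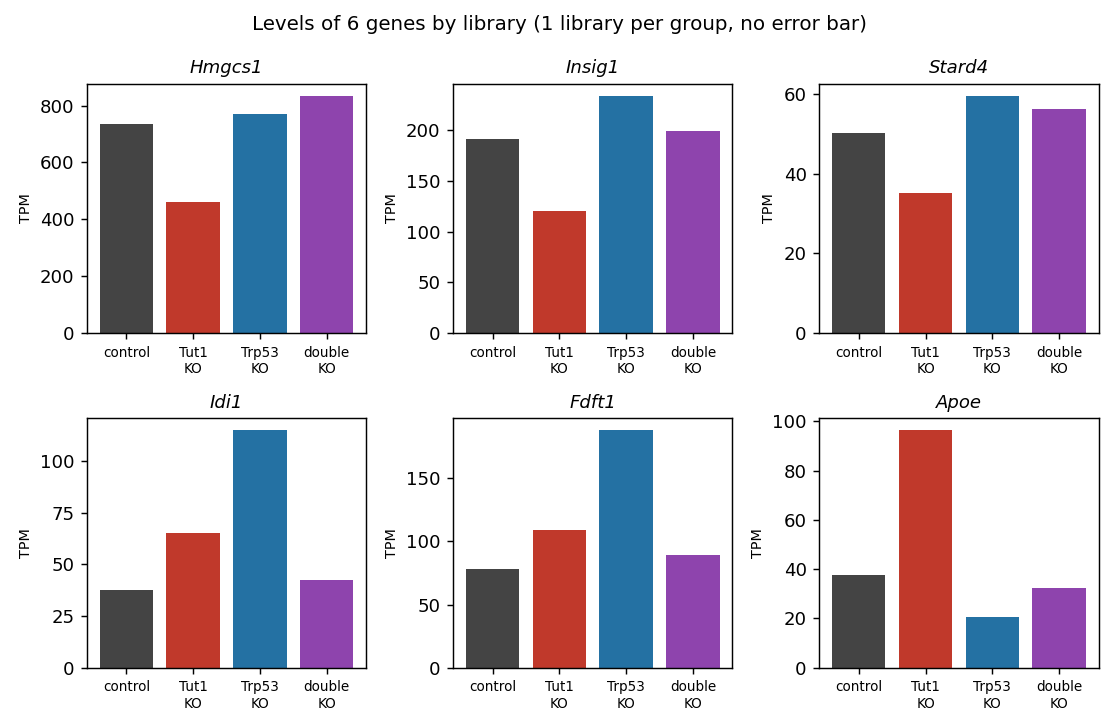
Bars give TPM in each of the 4 libraries for 6 members, 1 library per bar and no error bar, on axes that start at 0. Hmgcs1, Insig1 and Stard4 are lowest in Tut1 KO, Idi1 and Fdft1 are highest in Trp53 KO with Tut1 KO next, and Apoe is highest in Tut1 KO at 96.4 TPM.

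Squalene is next oxidised and closed into lanosterol. Sqle, squalene epoxidase and a rate-limiting step of the pathway, was at 176 TPM in control, 134 in Tut1 KO, 186 in Trp53 KO and 212 in double KO. Lss, lanosterol synthase, had 74.4, 48.4, 84.3 and 85.05 TPM, and Cyp51, which removes the first methyl group of lanosterol, had 171, 108, 173 and 181 TPM. Each was lowest in Tut1 KO. The other 3 libraries lay close to each other for Lss and Cyp51, while Sqle was also higher in double KO than in control, by a difference of 0.27. Tut1 KO minus control was -0.39 for Sqle, -0.61 for Lss and -0.66 for Cyp51, whereas double KO minus Trp53 KO was 0.18, 0.01 and 0.06.

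The later enzymes trim lanosterol to cholesterol. Tm7sf2, a sterol reductase, was at 50.03 TPM in control, 30.0 in Tut1 KO, 58.8 in Trp53 KO and 37.4 in double KO, and had the lowest difference of Tut1 KO from control (-0.72) among the 17 enzymes compared. It also was lower in double KO than in Trp53 KO, by a difference of -0.64, so both libraries labelled as Tut1-deleted lay below both others. Its exons overlap those of Vps51 on the same strand, and reads there can be assigned to either gene. Vps51 had 44.4 TPM in control, 46.5 in Tut1 KO, 35.4 in Trp53 KO and 39.5 in double KO.

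Msmo1, the methyl sterol oxidase, was nearly level, with 167 TPM in control, 169 in Tut1 KO, 186 in Trp53 KO and 187 in double KO. Nsdhl, the X-linked dehydrogenase that acts with it, had 126, 85.7, 133 and 119 TPM, and Hsd17b7, which completes the demethylation, had 12.03, 6.47, 8.93 and 11.4 TPM. Thus Nsdhl and Hsd17b7 were lowest in Tut1 KO and Msmo1 was not. Ebp, the X-linked isomerase of the sterol ring, had 28.9, 23.7, 29.9 and 31.1 TPM. Sc5d, which adds a ring double bond, was at 35.04 TPM in control, 22.2 in Tut1 KO, 34.7 in Trp53 KO and 39.3 in double KO. Dhcr7, which makes cholesterol from 7-dehydrocholesterol, was at 215, 164, 214 and 218 TPM, and like Ebp and Sc5d it was lowest in Tut1 KO. Differences of Tut1 KO from control were -0.55 for Nsdhl, -0.28 for Ebp, -0.64 for Sc5d and -0.39 for Dhcr7.

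**Figure D3:**
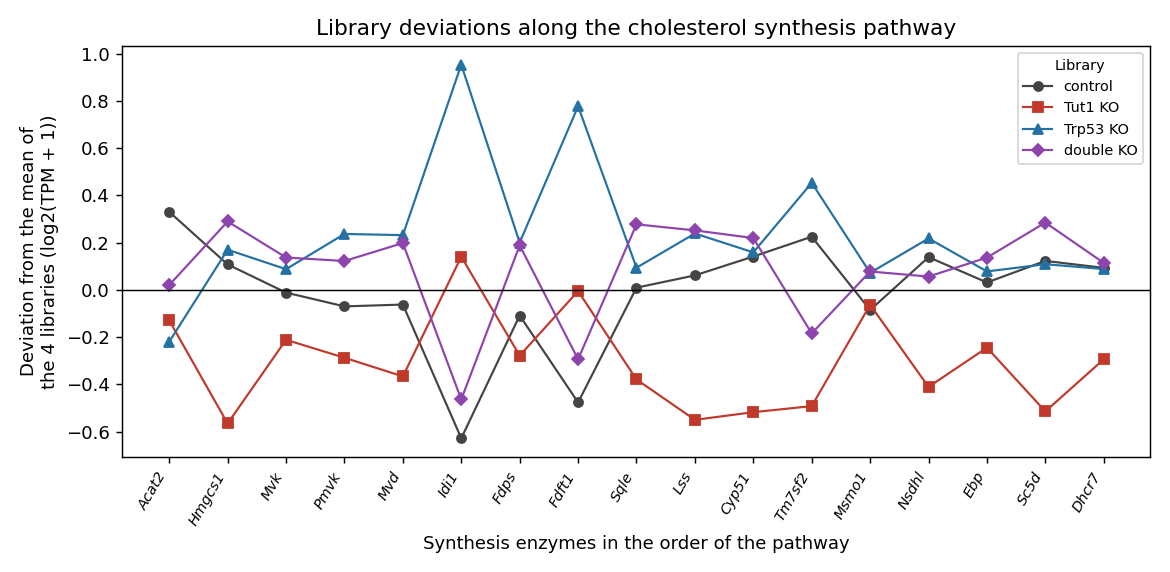
Each line is 1 library and gives its deviation from the mean of the 4 libraries in log2(TPM + 1) for the 17 synthesis enzymes compared, in the order of the pathway. The Tut1 KO line is below 0 for 16 of 17 enzymes and the Trp53 KO line is below 0 for 1, with peaks of Trp53 KO at Idi1 and Fdft1.

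Between Tut1 KO and control the median difference of the 17 enzymes was -0.39, with 14 of 17 below 0, while all 7949 genes had a median of -0.10. The 6 sensing genes had a median of -0.01 with 3 below 0, and the 5 transport and storage genes had -0.15 with 3 below 0. The transport and storage median was 0.16 with GC content and length removed, so its direction depends on the processing. Taken as 1 class, the 11 sensing and transport genes had a median of -0.14, so the synthesis median lay 0.24 lower (a difference of medians of -0.24). That difference was -0.51 with GC content and length removed. No member was lower by 1 or more on the log2 scale, against 1.79% of all genes, and Apoe was the only member higher by as much, against 0.805%. At a difference of at least 1.5-fold, 6 members were lower (Hmgcs1, Lss, Cyp51, Tm7sf2, Sc5d and Insig1) and 2 were higher (Idi1 and Apoe), that is 6 of 28 beside 6.52% of all genes and 2 of 28 beside 2.84%.

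With Trp53 deleted in both libraries, the synthesis enzymes as a class differed little by the Tut1 label. Double KO minus Trp53 KO had a median of 0.01 over the synthesis enzymes, with 7 of 17 below 0, -0.04 over the sensing genes and -0.08 over the transport and storage genes, beside 0.06 over all genes. The members lower by 1 or more were Idi1 and Fdft1, against 0.969% of all genes, and none was higher by as much, against 1.07%. At 1.5-fold, Tm7sf2 joined those lower (3 of 28 beside 3.08% of all genes) and Apoe was higher (1 of 28 beside 2.79%). Whether this contrast differed from that with Trp53 intact was not tested, since each rests on single libraries.

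Between Trp53 KO and control the synthesis enzymes were slightly higher, with a median of 0.10 beside -0.06 for all genes, and 16 of 17 lay above the median of all genes. The sensing genes had a median of 0.10 and the transport and storage genes 0.24 (-0.020 with no minimum TPM). Idi1 and Fdft1 were the members higher by 1 or more (1.06% of all genes were), and none was lower by as much (1.33% of all genes were). At 1.5-fold the same pair was higher, beside 2.79% of all genes, and Apoe was lower, beside 3.41%.

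From Tut1 KO to double KO, where both libraries carried the Tut1 label and both received Cre, the synthesis enzymes had a median of 0.41 beside 0.09 for all genes, with 15 of 17 above 0. The exceptions were Idi1 (-0.60) and Fdft1 (-0.29). The sensing genes had a median of -0.05 and the transport and storage genes 0.13 (-0.058 with GC content and length removed). No member was higher by 1 or more, against 1.51% of all genes, and Apoe was the member lower by as much, against 1.12%. At 1.5-fold, 7 members were higher (Hmgcs1, Sqle, Lss, Cyp51, Sc5d, Insig1 and Stard4) and Idi1 and Apoe were lower, that is 7 of 28 beside 5.62% of all genes and 2 of 28 beside 3.03%. This contrast shares the Tut1 KO library with the first one and the double KO library with the second, so it is not a further set of samples. Its libraries also differed in floxed alleles and in sex markers.

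**Figure D4:**
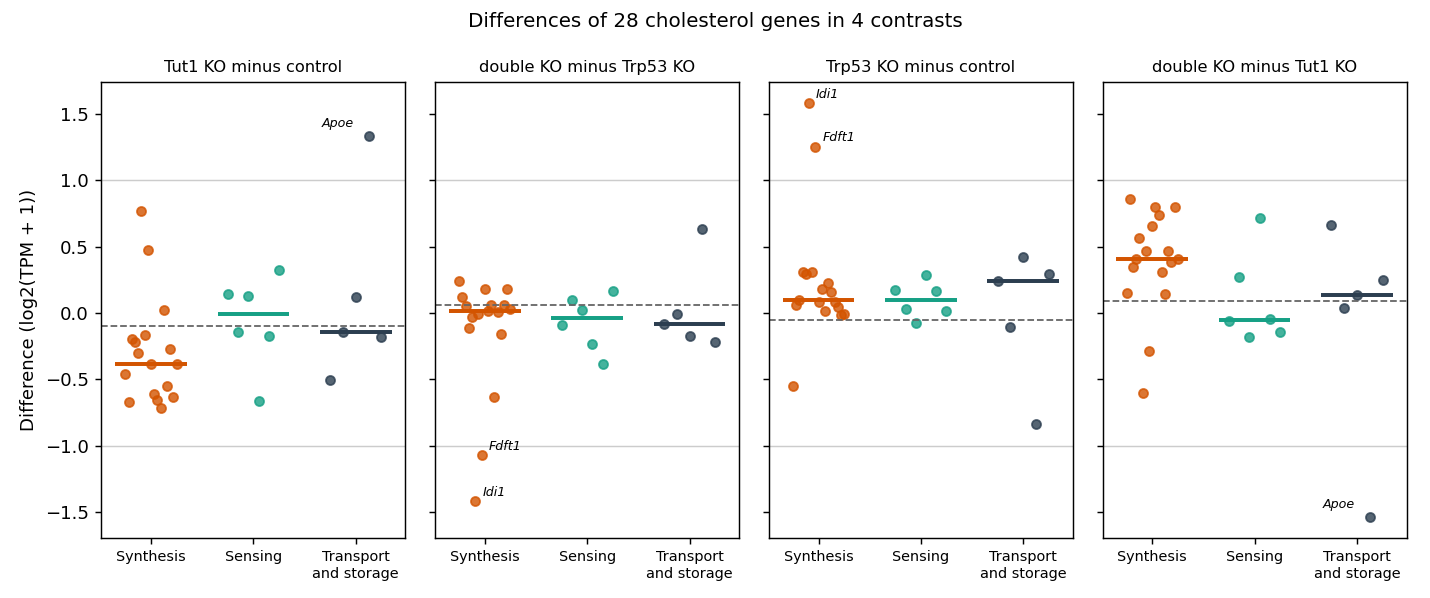
Each point is 1 of the 28 members compared, placed by its difference in log2(TPM + 1) in 4 contrasts, with solid bars at the class medians, a dashed line at the median of all 7949 genes and thin lines at 1 and -1. Of the 17 synthesis enzymes, 14 lie below the dashed line in Tut1 KO minus control and 15 above it in double KO minus Tut1 KO, and named points are the members past 1 or -1.

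The sensing genes divided into Insig1 and the rest. Insig1, which retains Scap in the endoplasmic reticulum and is itself a target of SREBP, was at 192 TPM in control, 120.4 in Tut1 KO, 234 in Trp53 KO and 199 in double KO. Tut1 KO was lowest and Trp53 KO highest, with a difference of Tut1 KO from control of -0.67, as for Hmgcs1. Insig2, its relative, was at 20.4 TPM in control, 17.9 in Tut1 KO, 22.9 in Trp53 KO and 17.3 in double KO, so for this gene double KO was lowest.

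The transcription factors and their escort varied less. Srebf2, which encodes the SREBP that mainly drives cholesterol genes, had 126 TPM in control, 114 in Tut1 KO, 129 in Trp53 KO and 138 in double KO. Srebf1, whose product mainly drives fatty acid genes, had 61.5, 67.9, 69.6 and 65.1 TPM, and Scap had 42.5, 46.5, 40.2 and 40.8 TPM. The difference of these 3 genes with the greatest size over the 4 contrasts was 0.27, that of Srebf2 between double KO and Tut1 KO. Nr1h2, the LXR receptor compared here, was at 30.0 TPM in control, 37.8 in Tut1 KO, 30.3 in Trp53 KO and 34.1 in double KO, and was the member with both Tut1-labelled libraries above both others.

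Of the 5 transport and storage genes compared, 3 were lowest in Tut1 KO, beside 42.4% of all genes, and with GC content and length removed Npc1 (0.10) and Soat1 (0.16) were higher there than in control. Stard4, which carries cholesterol between membranes, was at 50.4 TPM in control, 35.2 in Tut1 KO, 59.7 in Trp53 KO and 56.3 in double KO, with differences of -0.51 (Tut1 KO minus control) and 0.66 (double KO minus Tut1 KO). Npc1 and Npc2 hand cholesterol out of the lysosome. Npc1 was nearly level with 28.6, 25.7, 26.5 and 26.4 TPM, and Npc2 was at 142 TPM in control, 154 in Tut1 KO, 190.0 in Trp53 KO and 169 in double KO, lowest in control. Soat1, which esterifies cholesterol for storage, had 22.6, 19.9, 27.9 and 23.8 TPM, the same order of libraries as Stard4 with smaller differences (-0.18 and 0.25).

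Apoe, the main lipid carrier secreted in the brain, had the opposite order. It was at 37.6 TPM in control, 96.4 in Tut1 KO, 20.6 in Trp53 KO and 32.5 in double KO, so Tut1 KO was well above the other 3 libraries and Trp53 KO lowest. Tut1 KO minus control was 1.33 and double KO minus Tut1 KO was -1.54. Among all genes tested, 0.58% were as high in the first contrast and 0.34% as low in the second. It was also higher in double KO minus Trp53 KO, by 0.63, and in Trp53 KO minus control it was lower (-0.84). Apoe is also made by glia, and the summed level of 7 astrocyte markers was 300.0 TPM in control, 299 in Tut1 KO, 320.0 in Trp53 KO and 326 in double KO. This sum is made up mostly of Aldoc, Aldh1l1 and Gja1. Of the low members, Slc1a2 (7.24, 7.65, 6.03 and 7.02 TPM) had the library order of Apoe, while S100b (3.60, 5.21, 2.38 and 4.39 TPM) and Gfap (0.135, 0.966, 0.238 and 0.688 TPM) were also highest in Tut1 KO, and Aqp4 (0.542, 0.400, 0.158 and 0.472 TPM) was highest in control. Their part in the level of Apoe was not tested.

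The sterol exporters were low. Abca1, which loads cholesterol onto apolipoproteins, had 0.502 TPM in control, 0.923 in Tut1 KO, 0.162 in Trp53 KO and 0.297 in double KO. Abcg1, which exports cholesterol to lipoproteins, had 0.461, 0.400, 0.441 and 0.551 TPM in that order. At such levels and unknown depth no difference was read from either gene.

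The Trp53 label divided the libraries for more members than the Tut1 label did. For 15 of the 28 members both Trp53-deleted libraries lay above both Trp53-intact ones, beside 14.3% of all genes, and for Scap and Apoe both lay below, beside 13.6%. The 15 were Hmgcs1, Mvk, Pmvk, Mvd, Fdps, Sqle, Lss, Cyp51, Msmo1 and Ebp of the 17 synthesis enzymes, with Srebf2, Insig1, Stard4, Npc2 and Soat1. By the Tut1 label, Nr1h2 was the member with both deleted libraries above (15.6% of all genes) and Tm7sf2, Nsdhl, Insig2 and Npc1 were those with both below (16.7%). Many of these separations were small: Cyp51 in Trp53 KO exceeded control by 0.02. With 2 libraries against 2, an exact permutation test cannot give a p below 0.33, and none was run.

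Other genes of sterol metabolism were compared as a list of 41, of which 27 passed the minimum. Their median difference was -0.28 between Tut1 KO and control and 0.28 between double KO and Tut1 KO, beside -0.10 and 0.09 for all genes. Between Tut1 KO and control, 20 of 27 were below 0, as were 4925 of all 7949 genes. The median of the list was 0.04 for double KO minus Trp53 KO and -0.04 for Trp53 KO minus control, beside 0.06 and -0.06 for all genes. The gene past 1 was Dhdds, 1 of 27 beside 1.79% of all genes lower by as much between Tut1 KO and control. Dhdds makes dolichol precursors from farnesyl diphosphate. It was at 33.8 TPM in control, 14.2 in Tut1 KO, 24.2 in Trp53 KO and 19.8 in double KO, with a difference of -1.20 between Tut1 KO and control. None of the 27 was past 1 in the other contrasts, where between 0.969% and 1.51% of all genes were in each direction.

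Base composition moved with the libraries. Over 7944 genes with an annotation, the difference of Tut1 KO from control had a Spearman rho of 0.43 with transcript GC content and of -0.37 with transcript length, given as a description across genes that share both libraries. For double KO minus Tut1 KO the rho with GC content was -0.48. The deviation of single libraries from the mean of the 4 had a rho with GC content of -0.27 in control, 0.43 in Tut1 KO, -0.03 in Trp53 KO and -0.35 in double KO. The synthesis enzymes had a median GC content of 49.6%, beside 49.7% for all genes, 58.1% for the sensing genes and 45.7% for the transport and storage genes. With GC content and length removed by a quadratic fit, the synthesis median of Tut1 KO minus control was -0.36 and that of double KO minus Tut1 KO was 0.40, and Apoe had 1.18 and Idi1 1.03 in the first contrast, so that Idi1 came past 1 there. Single enzymes moved more: of the 6 members lower by 1.5-fold between Tut1 KO and control, Tm7sf2 stayed past that fold (-0.65), and Hmgcs1 (-0.42), Lss (-0.40), Cyp51 (-0.47), Sc5d (-0.34) and Insig1 (-0.57) did not. Stard4 was at -0.23. Of the 7 higher by 1.5-fold between double KO and Tut1 KO, Hmgcs1 (0.60), Lss (0.62) and Insig1 (0.61) stayed past it, Sqle (0.51), Cyp51 (0.55), Sc5d (0.51) and Stard4 (0.39) did not, and Mvd (0.70) came past it. The share of all genes past 1.5-fold after this correction was not computed, so no background stands beside these members. Of the 112 differences of members over the 4 contrasts, 12 had the other sign after this correction, the greatest of them 0.25 in size before it. Without Idi1 and Fdft1, chosen after their values were seen, the medians of the synthesis enzymes were -0.39 and 0.47.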

How the data were processed

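Gene expression was measured by RNA-seq in 4 libraries of primary mouse neural stem cells, 1 per group. The deposited values were TPM computed by the authors for each gene. The submitters' processing notes name Trimmomatic, HISAT2, StringTie and the mm10 build, without versions or roles. The labels name a stranded short-read mRNA kit but long reads are described in the series text, which leaves the platform uncertain, and the annotation version, strand setting and any pooling were not given in the sources used here. Depth is unknown, and TPM is relative: a share taken by some genes lowers the others.

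Members were matched by gene name and protein-coding biotype. Differences of log2(TPM + 1) were taken between libraries for genes with a mean TPM of at least 10, and a gene was called at a difference of 1 or more. No table column of another sample was present. Class medians and shares of all genes called were computed with Python 3.11.15, numpy 2.4.6, pandas 2.3.3 and scipy 1.17.1, figures with matplotlib 3.10.9, and the code was tested on simulated data. GC content and length came from GENCODE M21 (GRCm38), which held 99.4% of the gene IDs. All 31 members are named, and members called are named where 5 or fewer, while Xist, Ddx3y, Ctsb and Vps51 were chosen after their values were seen. The members and lists were chosen with earlier results of these data known. Of the marker lists, the neural stem cell markers summed to 12434 TPM in control, 11126 in Tut1 KO, 10568 in Trp53 KO and 12196 in double KO. The astrocyte list is given with Apoe. The neuronal and oligodendrocyte lineage lists are given with the synthesis enzymes. Microglia markers to between 0.267 and 0.747, and endothelial, pericyte and fibroblast markers to between 0.994 and 1.44. The alternatives were 2 other pseudocounts, 3 other filters, 2 scalings, other biotypes, a correction for GC content and length, a threshold of 1.5-fold and 4 settings added after seeing the data.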

Additional observations from a re-analysis of the deposited data

Results flagged for a closer look

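Idi1 went in opposite directions under the Tut1 label. It was 0.77 higher in Tut1 KO than in control and was at -1.42 in double KO minus Trp53 KO, so the contrasts differed by 2.19 on the log2 scale. The difference was not tested, because each contrast holds 1 library per group, and the sex markers divide the libraries in the same way. Fdft1 had the same signs, with 0.47 and -1.07.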

How the results depend on the processing

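No paired analysis was possible because each group held 1 library. Over the 9 other settings that can change a median (the threshold cannot), the median of the synthesis enzymes lay between -0.39 and -0.29 for Tut1 KO minus control, between 0.32 and 0.44 for double KO minus Tut1 KO, between 0.09 and 0.16 for Trp53 KO minus control, and, near 0, between -0.045 and 0.02 for double KO minus Trp53 KO. With the double KO in place of the Tut1 KO library, a setting added after seeing the data, the synthesis median against control was 0.16 and its distance from the sensing and transport genes 0.092, so both directions rest on the Tut1 KO library. Without Insig1 the sensing sum in Tut1 KO lay 1.33% above control (-14.3% with it), and without Apoe the transport and storage sum differed by -3.34% (18.0% with it), both chosen after seeing the data. With GC content and length removed, the distance of the synthesis median from the sensing and transport genes was -0.51 for Tut1 KO minus control. At that setting 41 of the 112 differences of members moved by 0.1 or more. Both Trp53-deleted libraries lay below for 1 member in place of 2 and both Tut1-labelled ones above for 2 in place of 1. The share of all genes divided in these ways was not computed at that setting. In Tut1 KO minus control, 2 members (Idi1 and Apoe) were called higher, beside 92 of all genes. The transport and storage median was 0.16 for Tut1 KO minus control and -0.058 for double KO minus Tut1 KO. With no minimum, the distance was 0.062 for Trp53 KO minus control (-0.064 with the minimum) and the transport and storage median -0.020. At 1.5-fold, 6 members were lower and 2 higher in Tut1 KO minus control, 1 was higher in double KO minus Trp53 KO, 1 was lower in Trp53 KO minus control, and 2 were lower and 7 higher in double KO minus Tut1 KO. The cause of these shifts was not tested, apart from the lower threshold. Over all genes, the number called at 1 or more ranged with the setting from 55 to 147 higher (64 as reported) and from 105 to 265 lower (142) in Tut1 KO minus control, from 62 to 175 higher (85) and from 57 to 169 lower (77) in double KO minus Trp53 KO, from 64 to 172 higher (84) and from 77 to 209 lower (106) in Trp53 KO minus control, and from 80 to 239 higher (120) and from 54 to 210 lower (89) in double KO minus Tut1 KO. Unknown depth limits every value, most of all those of the low members.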

Other observations

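Genes of fatty acid synthesis, the other arm of the SREBP program, were compared as a list of 8, all above the minimum. Their median difference was -0.35 between Tut1 KO and control, with 7 of 8 below 0, and 0.19 between Trp53 KO and control, with 8 of 8 above 0. Of all 7949 genes, 4925 were below 0 in the first contrast and 3050 above 0 in the second, with medians of -0.10 and -0.06. For double KO minus Trp53 KO the median of the list was -0.11, and for double KO minus Tut1 KO 0.44, beside 0.06 and 0.09 for all genes. Acss2, which makes acetyl-CoA from acetate, was at 94.8 TPM in control, 59.1 in Tut1 KO, 145 in Trp53 KO and 106 in double KO. Acly, which makes cytosolic acetyl-CoA from citrate, had 188, 127, 211 and 207 TPM in that order, and the desaturase Scd1 had 198, 144, 272 and 270.4 TPM. All 3 were lowest in Tut1 KO and highest in Trp53 KO.

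Scd2, a desaturase related to Scd1, was the exception. It was at 64.2 TPM in control, 720.4 in Tut1 KO, 81.8 in Trp53 KO and 47.3 in double KO, a difference of 3.47 between Tut1 KO and control and of -3.90 between double KO and Tut1 KO. It was the gene of the list called in both contrasts. Of all genes, 0.805% were called higher in the first and 1.12% lower in the second, and no cause was tested.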
